A study of Mus musculus with 22 samples.

Results

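The polysome and subpolysome fractions of Arid1a knockout (KO) mouse bladder organoids were compared: 3 polysome libraries against 3 subpolysome libraries, 6 of the 22 samples of the series, chosen by their labels and paired by replicate number. Organoids are epithelial cultures grown in 3 dimensions, and these were derived from primary urothelium, the lining of the bladder. All 6 libraries carried the genotype ARID1A KO, and no other treatment is named. Arid1a encodes a DNA-binding subunit of BAF, a chromatin remodelling complex. Lysates were layered on a sucrose gradient of 10 to 50% sucrose and fractionated, and RNA of the polysome part and of the subpolysome part was sequenced. Which peaks of the gradient each part held, whether monosomes were collected with the subpolysomes, which part of Arid1a was deleted and how many animals or lines the replicates came from are not stated in the labels. Of the other samples, the 6 polysome and subpolysome libraries of wild type (WT) organoids served to test whether a ratio differed between genotypes. These WT libraries were fitted together with the KO fraction libraries. They therefore also entered the low-count filter, the scaling and the estimate of spread behind each KO ratio. The 3 KO and 3 WT total RNA libraries served to find genes expressed mainly in KO. The question was which classes of RNA sit on polysomes, and which off them, in organoids labelled Arid1a KO.

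An mRNA that is being translated carries several ribosomes and sediments deep in a sucrose gradient, whereas mRNAs with few or no ribosomes, and RNAs that are not translated, stay near the top. The number of ribosomes an mRNA can carry also grows with the length of its coding sequence, so very short mRNAs stay light even when they are translated. The mRNAs of ribosomal proteins and of many translation factors begin with a 5' terminal oligopyrimidine (TOP) tract, through which growth signals acting by mTOR move them together between polysomes and free particles. Other mRNAs are held back by upstream open reading frames, as in Atf4, or by an iron-responsive element, as in the ferritins.

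Start-site windows are shown for 5 RNAs that lay far on the subpolysome side and have a pyrimidine tract near their annotated start. A tract at the start is the feature TOP mRNAs are named for. Windows of low genes without a tract and of genes on the polysome side are set beside them. Each window holds 30 bases of RefSeq sequence of build GRCm38.p6, written 5' to 3' on the transcribed strand. Capitals mark the tract, defined as a C followed by at least 6 bases that are each C or T, beginning between 10 bases before the annotated start and the 44th base after it. A window with a tract opens 8 bases before the tract, and a window without one opens 8 bases before the annotated start. The tract's offset from the annotated start was 8 bases in Rps12, 6 in Rpl39, 10 in Eif4b, -5 in Eef1a1 and -2 in Snhg12. In Prdx1 it was 6 and in Igf2 11, so no marked tract begins at the annotated start itself.
Rps12 (chr10:23787180-23787209, minus strand): accgccggCCTTTTCCCCTgccgccgccga
Rpl39 (chrX:37085195-37085224, minus strand): tctagcgaCTTCTTCTaatcgcgttcttcc
Eef1a1 (chr9:78481708-78481737, minus strand): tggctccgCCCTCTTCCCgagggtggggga
Eif4b (chr15:102073775-102073804, plus strand): ccgcgccaCCCCCTCgcgctgctttacgaa
Snhg12 (chr4:132308668-132308697, plus strand): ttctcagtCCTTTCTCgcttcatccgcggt
Of low genes whose windows are not shown, the ribosomal protein genes Rps28 (log2 ratio -4.57) and Rpl5 (-4.00) and the host gene Snhg8 (-5.35) had no tract. Rpl41 and Eef2, not shown either, had one. Tpt1, a TOP mRNA by general knowledge, and Gas5, a snoRNA host gene, also lay on the subpolysome side and showed no such tract in this window.
Tpt1 (chr14:75845248-75845277, plus strand): ctgacgacagttccgggggagccgcggacg
Gas5 (chr1:161034593-161034622, plus strand): gggcccgcgagctcgacagcccggagccaa
Prdx1 showed the tract and lay on the polysome side, as did Pcna and Snrpd3, which had none.
Prdx1 (chr4:116685597-116685626, plus strand): tcgggcgaCCTCTTCCTgcgttctcacggc
Pcna (chr2:132253159-132253188, minus strand): gccgcggcattagacggttgcgggcgcaga
Snrpd3 (chr10:75518034-75518063, plus strand): gtattcgtgagagtcgggccggtcgttctc
Among genes expressed mainly in KO, Igf2 lay on the subpolysome side and had the tract at 2 of its 4 annotated starts. Upk3a and Pdpn lay on the polysome side and had none.
Igf2 (chr7:142661239-142661268, minus strand): cctcgtcaCTTCTCCTacggtgtcccagcg
Upk3a (chr15:85017133-85017162, plus strand): tgcccttgctggtgacaggtgagcggagct
Pdpn (chr4:143299543-143299572, minus strand): agagttcgggggcggtcctagatctccggg

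A start was annotated for 18181 of the genes in the files, and 28.3% of them had a tract by this rule. The share was 30 of 37 among large-subunit and 17 of 25 among small-subunit ribosomal protein genes, and 8 of 14 among other TOP mRNAs. Among integrin and hemidesmosome genes, whose median log2 ratio was -0.01, it was 7 of 11, and among proteasome genes 4 of 31. It was 47.4% of 135 among the 200 genes with the lowest ratio, 26.2% of 149 among the 200 with the highest, and 26.7% of 191 among genes expressed mainly in KO. Ribosomal protein and other TOP genes were not left out of the 200 lowest, and a share without them was not computed. The median log2 ratio was -0.06 over 2955 tested genes with a tract and 0.08 over 7705 without. A match describes letters in a window and does not show that the tract is used.

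The polysome libraries held 68645704 to 76594655 counts and the subpolysome libraries 39245248 to 51628570. Levels below are CPM, counts scaled to a common library total and corrected by TMM factors, and a ratio is relative to other RNAs of the same fraction, since the amount of RNA in a fraction was not measured. All 16 urothelial markers lay above 1 CPM in both fractions, with summed levels of 10600 to 12800 CPM in polysomes and 7090 to 7990 CPM in subpolysomes. Fibroblast markers summed to 0.83 to 1.15 CPM in polysomes and 0.892 to 1.74 CPM in subpolysomes, with Col1a2, Col3a1 and Lum at 0 in both. Of 10 immune markers 2, Cd14 and Cd68, lay above 1 CPM, with list sums of 138 to 171 CPM in polysomes and 42.4 to 49.7 CPM in subpolysomes, and Ptprc, Cd3e and C1qa were at 0 in both. The smooth muscle list summed to 19.4 to 27.8 CPM in polysomes and 3.2 to 4.63 CPM in subpolysomes, with Acta2 the 1 member above 1 CPM, and Des and Actg2 at 0. Subpolysome replicate 3 stood apart in RNA of ribosomal origin. Rn45s, the ribosomal RNA precursor, took 0.653, 0.307 and 0.476% of the polysome libraries and 0.88, 1.72 and 5.59% of the subpolysome libraries. Without KO replicate 3 the test called 7846 genes, of which 7624 had the same call with it. The labels do not say whether replicates were separate cultures or animals. The p-values of the KO ratios rest on the spread among the KO and WT fraction libraries, fitted together, and that spread may be technical. A fit of the KO fraction libraries alone, paired by replicate number, called 8313 of 12920 genes tested. The joint fit called 8512 of 13392, and 8212 calls were shared in the same direction. Fraction and any difference in library preparation between the fractions cannot be told apart.

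Of 13392 genes tested, 4450 were higher in polysomes than in subpolysomes (33.2% of genes tested) and 4062 were lower (30.3%), by edgeR's quasi-likelihood test at an adjusted p under 0.05. At least 2-fold differences made up 1901 of the higher and 2062 of the lower calls. The lower side reached further, with 351 genes at least 8 times lower and 70 at least 8 times higher. Of the 8512 called genes, 8376 had the same sign in all 3 pairs, which follows in part from their being called on these pairs. In 8674 genes the 3 polysome values did not overlap the 3 subpolysome values. For genes named below because their ratio was high or low, a lack of overlap is no separate evidence. Ribosomal protein genes took 5.19, 5.39 and 6.94% of the counts of the polysome libraries and 39.9, 37.2 and 35.0% of those of the subpolysome libraries, against 10.3 to 10.5% in KO total RNA. Other TOP mRNAs took 1.37 to 1.43% of polysome counts and 10.2 to 11.9% of subpolysome counts. The scaling moved the split of calls: with library totals alone the median of all genes lies 0.89 higher on the log2 scale, and 85.8% of calls are on the polysome side against 52.3% with TMM factors. Classes are therefore set beside the median log2 of all genes, 0.04, which moves with them. Counts of calls in a list are to be read beside the shares over all genes, 33.2% higher and 30.3% lower.

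**Figure D1:**
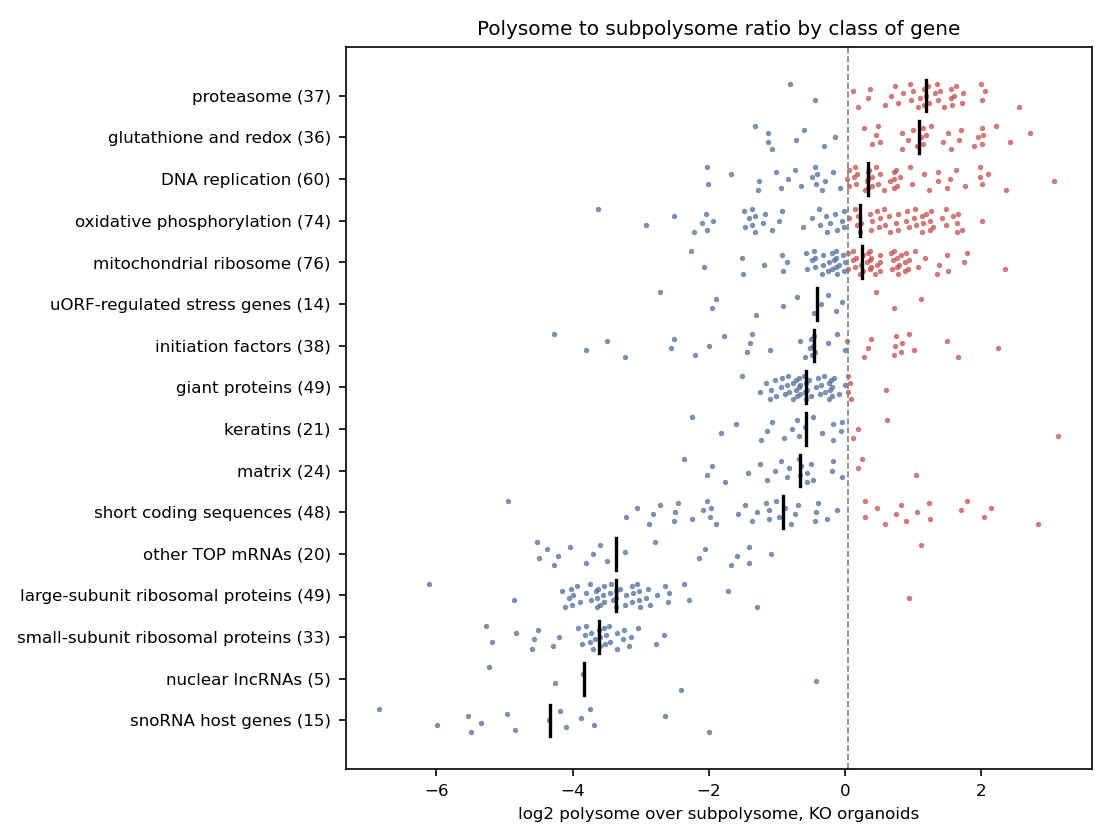
The log2 ratio of polysome over subpolysome in KO organoids (x axis) for each tested member of 16 gene lists (rows, number of members in brackets). Dots are genes, red above 0 and blue below, black bars are list medians and the dashed line is the median of all genes, 0.04. The ribosomal protein, other TOP, snoRNA host and nuclear lncRNA rows have medians from -4.34 to -3.36, and the proteasome and glutathione rows have medians above 1. With library totals alone the median of all genes lies 0.89 higher.

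Ribosomal protein mRNAs lay on the subpolysome side as a block. A ratio relative to other RNAs of a fraction does not give the share of an mRNA that was off polysomes. Of the 82 ribosomal protein genes tested, 81 were lower in polysomes and 1 was higher, and their median log2 ratio was -3.54, with pair medians of -3.85, -3.61 and -3.04. The large subunit gave 48 of 49 lower (median -3.37) and the small subunit 33 of 33 (median -3.61). Rpl41, which encodes a peptide of 25 residues, had 128, 112 and 181 CPM in polysomes and 9545, 9427 and 9373 CPM in subpolysomes. No polysome library came near a subpolysome library, and Rpl41 was 68.8 times lower in polysomes (log2 -6.10, SE 0.19, adjusted p = 2.19e-19). Rps12, with 132 residues, had 198, 188 and 263 CPM in polysomes and 9417, 7581 and 8055 CPM in subpolysomes (log2 -5.28, SE 0.18, adjusted p = 1.11e-18). Rps29 and Rpl39, both short as well, followed at -5.18 and -4.86. The exception was Rpl34, with 4.59, 5.51 and 8.76 CPM in polysomes and 3.50, 3.04 and 2.96 CPM in subpolysomes (log2 0.93, SE 0.23, adjusted p = 0.00109). Ribosomal protein genes have near-identical processed copies elsewhere in the genome, so their counts, and the very low level of Rpl34, depend on how reads with several matches were counted, which is not given.

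Of 20 other TOP mRNAs, 19 were lower in polysomes (median log2 -3.36) and Nsun2, an RNA methyltransferase, was higher (1.11). Eef2, the factor that moves the ribosome along the mRNA, had 1468, 1507 and 2065 CPM in polysomes and 37860, 37980 and 39050 CPM in subpolysomes. The groups were far apart, with Eef2 23.1 times lower in polysomes (log2 -4.53, SE 0.19, adjusted p = 7.63e-17). Eef1a1, which delivers aminoacyl-tRNA, had 2233, 2333 and 2151 CPM in polysomes and 46690, 38520 and 39400 CPM in subpolysomes (log2 -4.21, SE 0.19, adjusted p = 1.50e-16). The poly(A)-binding protein mRNA Pabpc1 lay at -4.50 and Tpt1 at -4.38. Eef2k, the kinase that inhibits Eef2, was on the other side: 89.5, 101 and 114 CPM in polysomes and 39.3, 36.8 and 45.2 CPM in subpolysomes, 2.51 times higher in polysomes (log2 1.32, SE 0.11, adjusted p = 1.97e-11). Eif5a, which helps ribosomes through difficult peptide bonds, was 2.65 times higher in polysomes (log2 1.41, SE 0.13, adjusted p = 5.76e-10).

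Initiation factors lay on both sides, with 13 of 38 higher in polysomes, 22 lower and a median of -0.46, which becomes 0.42 with library totals alone. Eif4b, a helper of the helicase that unwinds 5' leaders, had 430, 437 and 436 CPM in polysomes and 9348, 7770 and 8214 CPM in subpolysomes (log2 -4.28, SE 0.17, adjusted p = 1.22e-17). Subunits of the eIF3 complex differed: Eif3f, Eif3h and Eif3e lay at -3.80, -3.49 and -3.24, Eif3c at -0.48 and Eif3b at 1.01. The subunits Eif2s1 and Eif1ax were higher in polysomes, at 1.65 and 1.49. The highest was Eif6, which keeps the large subunit from joining too early, with 236, 300 and 436 CPM in polysomes and 59.6, 70.3 and 69.2 CPM in subpolysomes (log2 2.24, SE 0.13, adjusted p = 2.12e-14). Ribosome assembly factors gave 20 higher and 27 lower of 61 (median -0.11, or 0.77 with library totals alone).

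All 15 snoRNA host genes tested were lower in polysomes (median log2 -4.34), and so were 18 of 21 snoRNA genes, 234 of 511 genes annotated as lncRNA (median -1.41, 20 higher and 257 not called) and 4 of 5 nuclear lncRNAs. Over all genes 30.3% were lower. The snoRNA genes had a fitted median of -5.51 but pair medians of -3, -2.53 and -2.49 with 0.1 CPM added to each value. The size of their ratios therefore rests on very low levels. Host genes are spliced transcripts whose introns hold snoRNAs. Gas5 had 35.5, 34.5 and 53.7 CPM in polysomes and 1971, 1864 and 1792 CPM in subpolysomes, 46.4 times lower in polysomes (log2 -5.54, SE 0.17, adjusted p = 1.41e-19). Snhg6 had 2.84, 2.5 and 2.94 CPM in polysomes and 178, 183 and 167 CPM in subpolysomes, 63.8 times lower in polysomes (SE 0.13 on the log2 scale, adjusted p = 8.76e-22). In both genes every polysome library lay far below every subpolysome library. Malat1, an RNA of nuclear speckles, had 7.58, 7.85 and 9.43 CPM in polysomes and 200, 366 and 411 CPM in subpolysomes (log2 -5.24, SE 0.18, adjusted p = 1.61e-18). Neat1, the scaffold of paraspeckles, followed with 41.3, 26.5 and 28.6 CPM in polysomes and 803, 501 and 556 CPM in subpolysomes (log2 -4.27, SE 0.12, adjusted p = 3.68e-20). The nuclear RNA Airn did not pass, with 3.06, 3.38 and 3.34 CPM in polysomes and 4.71, 5.69 and 3.10 CPM in subpolysomes (log2 -0.43, SE 0.26, adjusted p = 0.143). Of the 10 lowest genes, the lncRNA Epb4.1l4aos lay at -5.83 and the host gene Snhg8 at -5.35. Toporsos, at -6.14, is annotated as coding for 49 residues and overlaps Topors, so reads of the 2 genes may not be told apart.

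**Figure D2:**
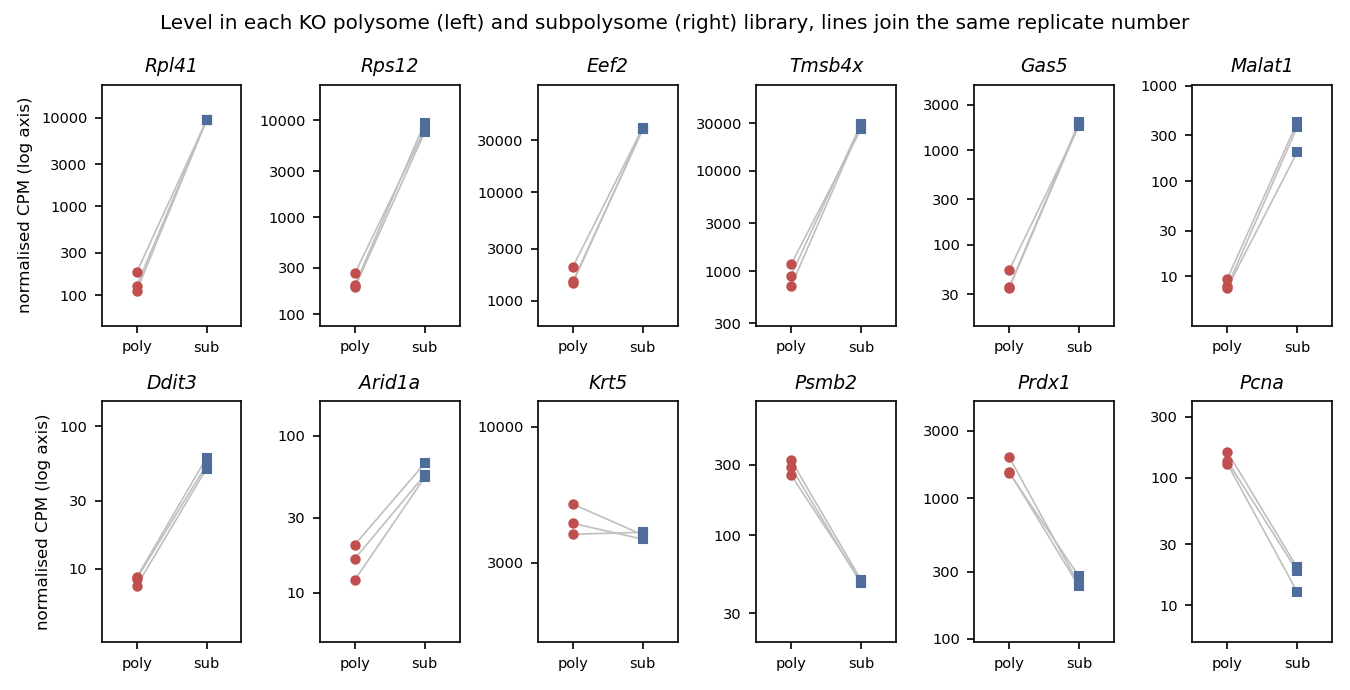
Normalised CPM (log axis, a separate range in each panel) of 12 genes in the 3 KO polysome libraries (poly, red circles, left) and the 3 KO subpolysome libraries (sub, blue squares, right). Grey lines join the same replicate number. In Rpl41, Rps12, Eef2, Tmsb4x, Gas5, Malat1, Ddit3 and Arid1a every polysome value lies below every subpolysome value, in Psmb2, Prdx1 and Pcna every one lies above, and in Krt5 the fractions overlap.

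The ratio also followed the length of the encoded protein, higher towards the middle lengths and lower beyond them. A coding length was found for 12718 of the tested genes, of which 12666 are annotated as protein coding, 29 as lncRNA (H19 among them) and 15 as transcribed pseudogenes. Bins began at 100, 200, 400, 800 and 1600 residues. The median log2 ratio was -0.76 for the 281 genes under 100 residues, 0.22 for the 1442 genes from 100 and 0.47 for the 3702 genes from 200 residues. It was 0.08 for the 4692 genes from 400, -0.26 for the 2064 genes from 800 and -0.53 for the 537 genes of 1600 residues and more. With library totals alone the 6 medians were 0.11, 1.11, 1.35, 0.97, 0.62 and 0.35, so the 3 negative signs flip and the order of the bins from 200 residues on is kept. In the bin from 200 residues 1833 genes were higher and 731 lower, and in the longest bin 29 were higher and 301 lower. Leaving out ribosomal protein and other TOP genes moved the shortest bin to -0.68 and the bin from 100 residues to 0.26, and the other bins by 0.01 or less. Each of the 3 pairs gave the same order of the bins from 200 residues on. These are descriptions across genes of the same libraries, and genes are not replicates.

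**Figure D3:**
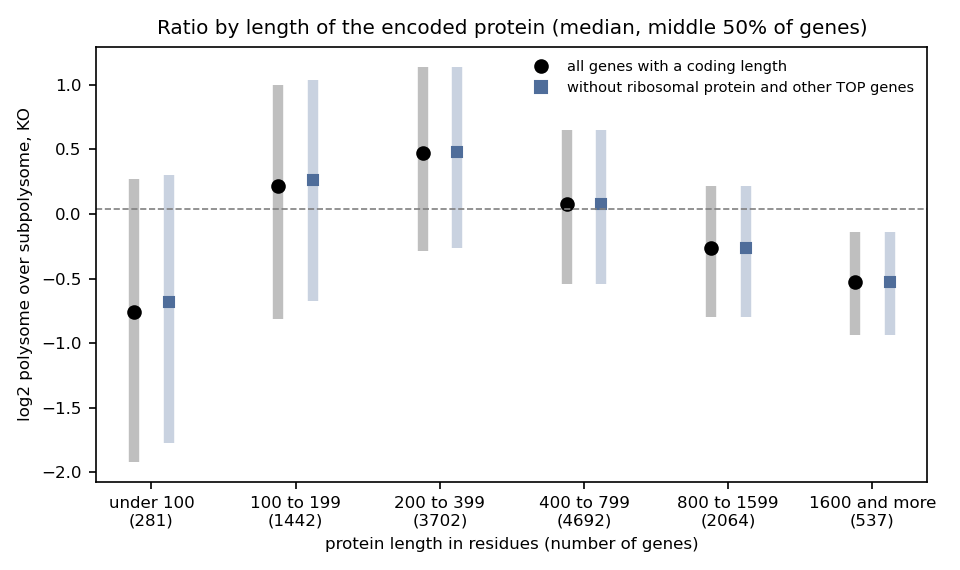
Median log2 ratio of polysome over subpolysome in KO organoids (y axis) by length of the encoded protein in residues (x axis, number of genes in brackets). Black circles are all genes with a coding length, blue squares leave out ribosomal protein and other TOP genes, pale bars span the middle 50% of genes and the dashed line is the median of all genes. The highest median, 0.47, belongs to the bin from 200 residues, and the lowest, -0.76, to proteins under 100 residues. With library totals alone the medians run from 0.11 to 1.35.

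Of 48 thymosins, ubiquitins and other short proteins, 32 were lower in polysomes and 15 higher (median -0.92, or -0.04 with library totals alone). Tmsb4x, a thymosin of 44 residues that binds actin monomers, had 1163, 707 and 901 CPM in polysomes and 26170, 28400 and 29270 CPM in subpolysomes, 30.9 times lower in polysomes (log2 -4.95, SE 0.20, adjusted p = 4.30e-17). Tmsb10, of the same length, lay at -2.72, and Ost4, a subunit of the oligosaccharyltransferase with 37 residues, at -3.05. Other short proteins lay on the polysome side. Snrpd3, a core protein of spliceosomal particles with 126 residues, had 214, 181 and 225 CPM in polysomes and 25.7, 27.1 and 34.7 CPM in subpolysomes (log2 2.83, SE 0.12, adjusted p = 5.54e-17). Of 49 very long proteins 33 were lower, Usp9x alone was higher (0.61) and the median was -0.57, which becomes 0.31 with library totals alone. The lowest was the histone methyltransferase Kmt2b, at -1.52. Genes of the zinc finger family named Zfp gave 168 of 307 lower, 36 higher and a median of -0.52.

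Among called genes with an average log2 CPM of at least 4 and the same sign in all pairs, the 10 highest were Pcna, Atg101, Snrpb, Snrpd3, Cbr2, Prdx1, Ahsa1, Vsnl1, Prdx5 and Bdh1, between 2.57 and 3.07. Pcna, the sliding clamp of DNA polymerases, had 135, 129 and 160 CPM in polysomes and 18.5, 12.8 and 19.7 CPM in subpolysomes. The fractions did not overlap, and Pcna was 8.41 times higher in polysomes (log2 3.07, SE 0.12, adjusted p = 9.24e-18). Cbr2, a carbonyl reductase and the most abundant of the 10, had 4319, 5417 and 7590 CPM in polysomes and 733, 814 and 923 CPM in subpolysomes (log2 2.78, SE 0.15, adjusted p = 8.08e-15). Atg101, part of the complex that starts autophagy, had 141, 172 and 256 CPM in polysomes and 21.4, 22 and 25.7 CPM in subpolysomes (log2 3.00, SE 0.13, adjusted p = 1.06e-16). In all 3 genes polysome replicate 3 was the highest of the polysome libraries.

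The proteasome, which degrades ubiquitin-tagged proteins, lay on the polysome side. Of 37 subunits 33 were higher, Psmb1 (-0.81) and Psmd4 (-0.44) were lower, and the median was 1.18. Psmb2, a subunit of the catalytic core, had 254, 287 and 321 CPM in polysomes and 49.2, 47.7 and 50.3 CPM in subpolysomes (log2 2.54, SE 0.11, adjusted p = 1.28e-16). Psmb1, of the same ring, had 487, 498 and 613 CPM in polysomes and 1033, 893 and 866 CPM in subpolysomes. Glutathione and redox genes followed, with 27 of 36 higher, 7 lower and a median of 1.08. Prdx1, a peroxide scavenger, had 1511, 1538 and 1954 CPM in polysomes and 277, 236 and 243 CPM in subpolysomes (log2 2.72, SE 0.14, adjusted p = 4.80e-15). Nqo1, a quinone reductase, lay at 2.21 with no overlap. The selenoprotein Gpx2 went the other way, with 219, 173 and 290 CPM in polysomes and 533, 475 and 674 CPM in subpolysomes (log2 -1.32, SE 0.11, adjusted p = 7.99e-11), and Gpx1 and Gpx4, selenoproteins as well, lay at -1.14 and -0.72.

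DNA replication genes gave 31 of 60 higher and 9 lower (median 0.34), mitosis genes 21 of 58 higher and 18 lower (median 0.09), with the mitosis list near the shares over all genes of 33.2% higher and 30.3% lower. The licensing factor Cdt1 and its inhibitor Gmnn sat on opposite sides. Gmnn had 48.5, 39.4 and 54.6 CPM in polysomes and 11.3, 5.77 and 11.7 CPM in subpolysomes (log2 2.36, SE 0.15, adjusted p = 1.79e-13). Cdt1 had 9.62, 8.31 and 12.8 CPM in polysomes and 44.4, 41.2 and 37.9 CPM in subpolysomes (log2 -2.03, SE 0.14, adjusted p = 2.16e-12). Cdk1 lay at 1.98 and Mki67, with 3177 residues, at -1.40. Nuclear-encoded oxidative phosphorylation genes gave 36 of 74 higher and 25 lower (median 0.22), and mitochondrial ribosome genes 37 of 76 higher and 17 lower (median 0.24). The lowest of the first list were Uqcr10, with 64 residues, at -3.63 and Ndufa6, with 131, at -2.93, and its highest was Atp5g3, with 141, at 2.01. The mitochondrial ribosome ran from Mrpl33, with 65 residues, at -2.27 to Mrpl41, with 135, at 2.35. Of 40 histone genes 33 were not called, and the list's pair medians ran from -0.96 to 0.65.

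Of 14 stress-response mRNAs with upstream open reading frames, 8 were lower and 2 higher (median -0.41, or 0.48 with library totals alone). Ddit3, a transcription factor of the stress response, had 8.56, 7.62 and 8.72 CPM in polysomes and 53.8, 50.6 and 60.4 CPM in subpolysomes (log2 -2.72, SE 0.12, adjusted p = 7.90e-17). Atf4, the activator at the centre of that response, had 159, 153 and 217 CPM in polysomes and 652, 659 and 712 CPM in subpolysomes (log2 -1.95, SE 0.12, adjusted p = 1.06e-13), and Atf5 lay at -1.89. The 2 exceptions were Cdkn1b (1.12) and Cebpa (0.72). Known Atf4 targets gave 16 of 35 higher and 9 lower (median 0.25).

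In the iron list 6 of 12 were lower and 3 higher (median -0.45, or 0.44 with library totals alone). Over all genes tested 33.2% were higher and 30.3% lower. Slc40a1, the iron exporter ferroportin, whose mRNA carries an iron-responsive element in its leader, had 16, 19.3 and 14.5 CPM in polysomes and 148, 153 and 132 CPM in subpolysomes (log2 -3.12, SE 0.11, adjusted p = 2.44e-18). The ferritin chains Fth1 and Ftl1, with elements of the same kind, lay at -2.38 and -1.77. The receptor Tfrc, whose elements lie in its 3' end, lay at -0.66. Immediate early genes gave 16 of 32 lower and 6 higher (median -0.24, or 0.64 with library totals alone). Zfp36, which binds AU-rich mRNAs and sends them to decay, had 14.3, 12.4 and 12.7 CPM in polysomes and 193, 170 and 230 CPM in subpolysomes (log2 -3.90, SE 0.12, adjusted p = 2.62e-19). NFkB pathway and cytokine genes gave 9 of 28 higher, near the share over all genes, and 12 lower (median -0.06, or 0.82 with library totals alone). The regulator Nfkbiz and the chemokine Cxcl1 were low members, at -3.28 and -2.88. Splicing factors gave 18 of 34 higher and 10 lower (median 0.32), with the kinase Clk1 at -2.58. Maff, a small transcription factor, was 4.52 times higher in polysomes (log2 2.18, SE 0.13, adjusted p = 7.77e-14).

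Of 21 keratin genes, the intermediate filaments of epithelia, 11 were lower in polysomes and 10 were not called (median -0.58, or 0.30 with library totals alone). Over all genes tested 33.2% were higher and 30.3% lower. Krt18, a keratin of luminal cells, had 217, 286 and 318 CPM in polysomes and 1195, 1441 and 1227 CPM in subpolysomes (log2 -2.25, SE 0.13, adjusted p = 3.49e-14). Its partner Krt8 lay at -1.82. Krt14, of basal cells, had 1039, 1230 and 1697 CPM in polysomes and 3711, 4357 and 3782 CPM in subpolysomes (log2 -1.61, SE 0.15, adjusted p = 6.51e-10). Its partner Krt5 overlapped between fractions, with 3856, 4247 and 5034 CPM in polysomes and 3923, 3689 and 3833 CPM in subpolysomes (log2 0.19, SE 0.14, adjusted p = 0.250). Matrix genes gave 14 of 24 lower (median -0.67, or 0.22 with library totals alone) and 1 higher, Sparc (1.05), with Tgfbi lowest at -2.36. Basal urothelial genes gave 14 of 20 lower and 3 higher (median -0.51, or 0.37 with library totals alone). The luminal list gave 9 of 25 higher, 9 lower and 7 not called, near the shares over all genes. It ran from Krt18 at -2.25 to the fatty acid-binding protein Fabp4 at 1.54. Its uroplakin genes Upk3a, Upk2, Upk3bl, Upk1a and Upk1b were higher in polysomes, at 1.42, 1.05, 0.75, 0.68 and 0.39, and Upk3b (-0.24) was not called. Gata3, Tbx2 and Tbx3, which code for transcription factors, were lower, at -1.55, -0.90 and -0.87.

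Arid1a itself was the lowest of the 24 BAF genes tested, of which 10 were higher and 5 lower (median 0.21). It had 20.2, 16.4 and 12 CPM in polysomes and 66.4, 56.0 and 54.1 CPM in subpolysomes, with no overlap, and was 3.69 times lower in polysomes (log2 -1.88, SE 0.13, adjusted p = 7.76e-13). The ratio in WT was -1.22, and the difference, KO minus WT, did not pass (log2 -0.66, SE 0.17, adjusted p = 0.249). Reads of the gene outside the deleted part are counted too, so the counts do not show how much of the intact mRNA is left. In total RNA Arid1a had 93.1, 93.3 and 104 CPM in KO and 140, 157 and 142 CPM in WT (log2 -0.60, SE 0.06, adjusted p = 5.68e-06). Its paralog Arid1b lay at -0.69 and changes sign with library totals alone, at 0.19. Actl6a, an actin-related subunit, was the highest at 1.73.

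Genes expressed mainly in KO were taken from the total RNA libraries, which played no part in the ratio: an adjusted p under 0.05 and a KO over WT log2 of at least 2 (4-fold). They numbered 261 (1.98% of 13198 genes tested there), and 252 of them were tested in the fractions. The 9 not tested lay at 0.157 to 0.407 CPM in KO total RNA. In organoid total RNA, more cells of a kind and more RNA per cell cannot be told apart. In the KO fractions 46 of the 252 were higher in polysomes and 35 lower, with 171 not called and a median log2 of 0.16. The remaining 12504 genes gave 4347 higher and 3927 lower with a median of 0.04. The mainly KO genes had low counts, with a median of 512 counts over the 6 KO fraction libraries and 86 over the 6 WT ones. Of the 52 with an average log2 CPM of at least 2 in the fractions, 22 were higher, 21 lower and the median was -0.03. Of all 10042 genes at that average, 4151 were higher and 3386 lower. The average runs over the KO and WT fraction libraries, and low WT levels pull it down for genes mainly in KO. The 2 sets are therefore not matched in their KO level. At the limit of log2 2, Hes2 lay just inside, and H2-Q2 just outside.

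**Figure D4:**
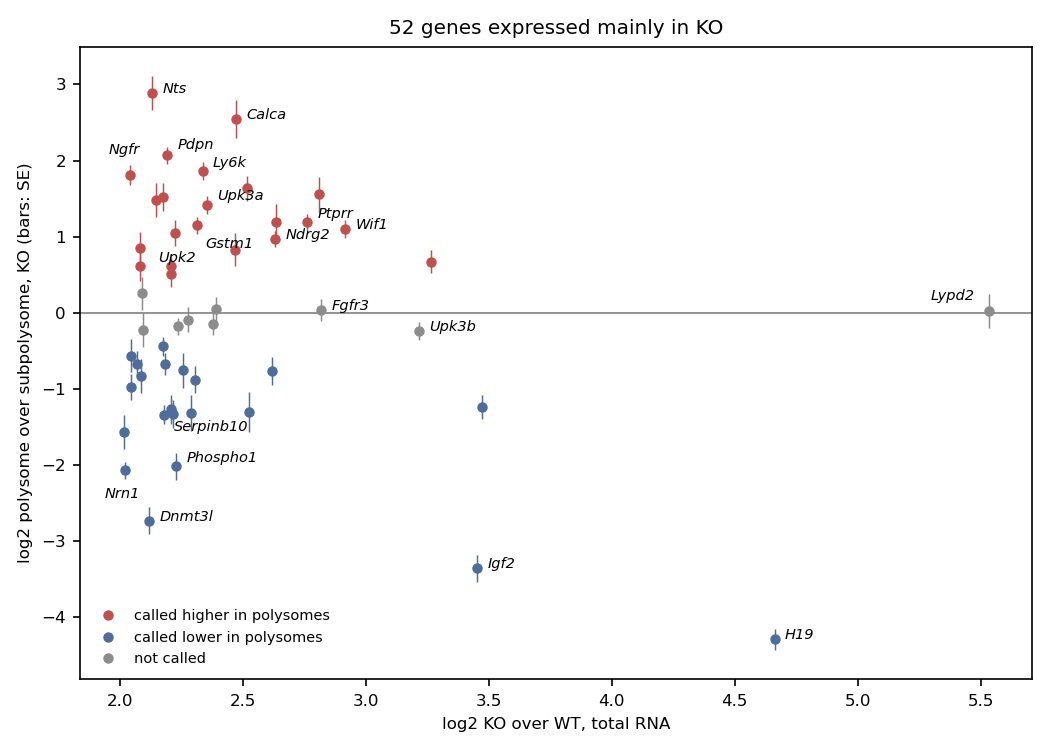
Log2 ratio of polysome over subpolysome in KO (y axis, bars are SE) against log2 KO over WT in total RNA (x axis). Dots are the 52 genes expressed mainly in KO with an average log2 CPM of at least 2 over the KO and WT fraction libraries. Red dots were called higher in polysomes (22), blue dots lower (21) and grey dots were not called (9). H19 and Igf2 lie lowest, at -4.29 and -3.36, and Nts and Calca highest, at 2.89 and 2.55.

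The imprinted pair H19 and Igf2, neighbours on chromosome 7, were both mainly in KO and both far on the subpolysome side. H19, an untranslated RNA (chr7:142575530-142578146), had 176, 142 and 189 CPM in polysomes and 3867, 2867 and 3212 CPM in subpolysomes, 19.6 times lower in polysomes (log2 -4.29, SE 0.14, adjusted p = 8.27e-19). Igf2, a growth factor (chr7:142650768-142666816), had 5.75, 6.81 and 5.36 CPM in polysomes and 62.0, 58.9 and 62.1 CPM in subpolysomes, 10.2 times lower in polysomes (log2 -3.36, SE 0.17, adjusted p = 4.89e-15). The ratios of both in WT were -4.37 and -2.97, where their levels were far lower, and neither difference passed (adjusted p = 0.952 for H19 and 0.771 for Igf2). In total RNA H19 had 1033, 824 and 890 CPM in KO and 47.3, 33.3 and 27.8 CPM in WT, and Igf2 had 22.5, 22.7 and 21.8 CPM in KO and 2.08, 2.17 and 1.86 CPM in WT.

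Other genes mainly in KO with low ratios were Dnmt3l, Nrn1 and Phospho1. Dnmt3l, a cofactor of DNA methyltransferases, had 7.67, 4.17 and 5.78 CPM in polysomes and 37.0, 40.7 and 36.4 CPM in subpolysomes (log2 -2.73, SE 0.17, adjusted p = 2.70e-13). Nrn1, encoding the membrane-anchored protein neuritin, had 27.8, 21.2 and 23.3 CPM in polysomes and 114, 93.5 and 95.7 CPM in subpolysomes (log2 -2.07, SE 0.11, adjusted p = 1.53e-14). Phospho1, a phosphatase, lay at -2.02. The others of the 10 lowest were Slc44a4, Serpinb10, Homer2, Gdpd3 and Syne4, between -1.57 and -1.30. Of these Serpinb10, a protease inhibitor, was the most abundant, with 48.9, 46.2 and 59.2 CPM in polysomes and 171, 107 and 118 CPM in subpolysomes (log2 -1.34, SE 0.13, adjusted p = 5.67e-10). The fractions of all these genes did not overlap, as in 8674 of the 13392 genes tested. The genes were picked by this ratio, so the lack of overlap is no separate evidence.

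Nts, the neurotensin precursor, had 14.7, 14.8 and 14.8 CPM in polysomes and 2.07, 2.19 and 1.72 CPM in subpolysomes, 7.4 times higher in polysomes (log2 2.89, SE 0.23, adjusted p = 1.73e-11). Calca, the precursor of calcitonin and CGRP, had 13.8, 12 and 19 CPM in polysomes and 2.91, 3.01 and 1.62 CPM in subpolysomes (log2 2.55, SE 0.25, adjusted p = 1.45e-09). Pdpn, the mucin-type surface protein podoplanin, had 153, 169 and 154 CPM in polysomes and 35.4, 36.2 and 42.3 CPM in subpolysomes (log2 2.07, SE 0.11, adjusted p = 5.72e-15). In none of these 3 genes, picked by their high ratio, did the fractions overlap. Ly6k, a surface protein with a lipid anchor, lay at 1.86 and Ngfr, the low-affinity neurotrophin receptor, at 1.81. The rest of the 10 highest were Cnfn, Atp6v0d2, Rab3b, Upk3a and Pdlim4, between 1.20 and 1.63. Rps4l, left out of that ranking as an annotated transcribed pseudogene, lay at 1.56.

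The 5 luminal genes expressed mainly in KO took different places. Upk3a, a uroplakin of the apical plaque, had 148, 219 and 272 CPM in polysomes and 62.3, 96.7 and 75.6 CPM in subpolysomes (log2 1.42, SE 0.12, adjusted p = 5.06e-11). Upk2, another uroplakin of the plaque, was 2.07 times higher in polysomes (log2 1.05, SE 0.17, adjusted p = 6.12e-06). Upk3b, of the same family, overlapped between fractions, with 36.0, 45.2 and 47.8 CPM in polysomes and 44.2, 54.7 and 53.0 CPM in subpolysomes (log2 -0.24, SE 0.11, adjusted p = 0.0678). The receptor Fgfr3 gave 21.9, 24.3 and 25.3 CPM in polysomes and 22, 24.4 and 23.2 CPM in subpolysomes (log2 0.04, SE 0.14, adjusted p = 0.832), and the sorting nexin Snx31 lay at -0.14 without passing. Of the fixed set, Gstm1, a glutathione transferase, had 669, 862 and 720 CPM in polysomes and 326, 354 and 331 CPM in subpolysomes (log2 1.15, SE 0.11, adjusted p = 6.05e-10). Wif1, a secreted Wnt inhibitor, lay at 1.10 and Ndrg2 at 0.96. Of other abundant mainly KO genes, the phosphatase Ptprr lay at 1.19, and Krt23 was not called, with 111, 103 and 93.7 CPM in polysomes and 115, 111 and 121 CPM in subpolysomes (log2 -0.18, SE 0.11, adjusted p = 0.171).

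WT organoids gave 4599 genes higher and 4186 lower, and 7663 genes had the same call in both genotypes and 5 the opposite call. Those 5, Kcnh3, Vac14, AW549877, Plekhs1 and Tmprss11e, did not pass the test of the difference (adjusted p = 0.0533 to 0.339). That test, the interaction of genotype and fraction, called 12 of 13392 genes (0.0896%), with 1078 at an unadjusted p under 0.05. These calls depend on the pairing: with no replicate block 1 of the 12, C1s1, passed, and the adjusted p of the other 11 lay between 0.0856 and 0.773. None of the ribosomal protein, other TOP, snoRNA host, proteasome or glutathione genes was among the 12. A p that misses the threshold does not show that a ratio is the same in both genotypes. In simulated libraries of this design 65.7% of 2-fold and 93.9% of 4-fold differences were called. The simulation gave all genes the same spread and both fractions the same base levels, and changed few genes. These shares may therefore not hold for the real libraries.

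Ttll5, a tubulin-modifying enzyme whose first bases overlap the gene 0610007P14Rik, had a higher ratio in KO. It had 12.2, 13.7 and 11 CPM in KO polysomes and 20.8, 25 and 20.8 CPM in KO subpolysomes, and 31.9, 40.4 and 37.6 CPM in WT polysomes and 103, 143 and 171 CPM in WT subpolysomes (difference 1.04, SE 0.16, adjusted p = 0.00359). Rsrp1, an arginine and serine-rich protein, had 9.14, 7.23 and 7.48 CPM in KO polysomes and 26.6, 21.2 and 24.1 CPM in KO subpolysomes, and 20.3, 16.1 and 11.8 CPM in WT polysomes and 24.7, 21.7 and 15.5 CPM in WT subpolysomes (difference -1.22, SE 0.18, adjusted p = 0.00359). Both genes were also lower in KO total RNA (log2 -1.39 for Ttll5 and -0.75 for Rsrp1), and with no replicate block their adjusted p was 0.169 for Ttll5 and 0.209 for Rsrp1. Wsb1, of a ubiquitin ligase, was lower in KO polysomes with a ratio of -1.06, against -0.16 in WT (adjusted p of the difference = 0.00573). Spp1, the secreted osteopontin, was on the polysome side in both, at 1.40 in KO and 2.38 in WT (adjusted p of the difference = 0.0126). Calcb, encoding the second CGRP peptide, lay at 0.62 in KO and -0.22 in WT (adjusted p of the difference = 0.0153). The complement protease gene C1s1 rested on few reads, with 108, 132 and 89 counts in KO polysomes and 1, 0 and 1 in KO subpolysomes, a ratio of 57.4 with an exact 95% interval of 15.8 to 476 for counting error alone.

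**Figure D5:**
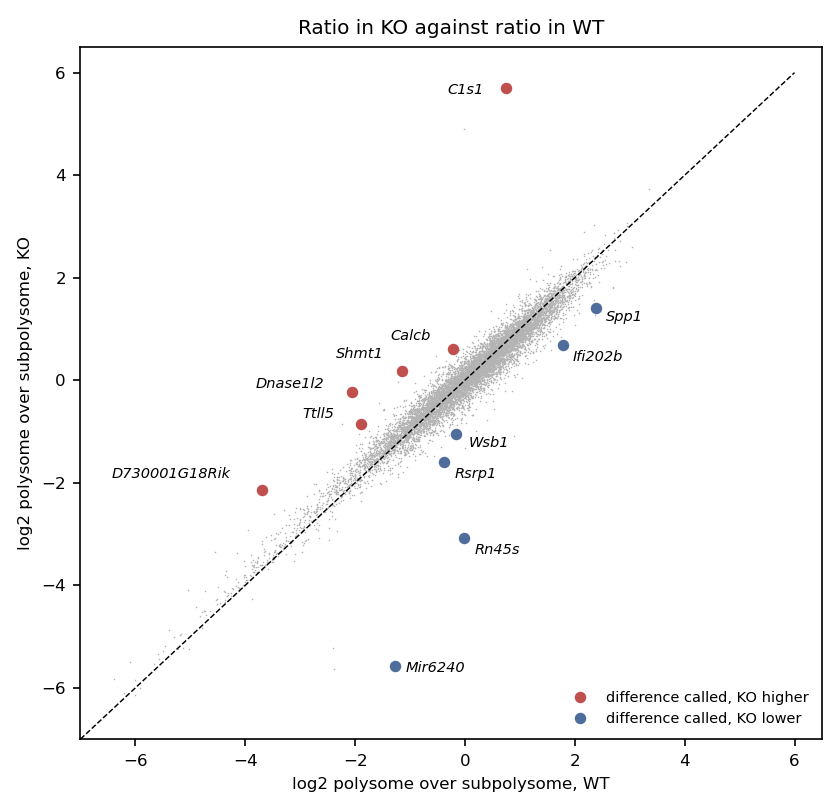
Log2 ratio of polysome over subpolysome in KO (y axis) against the same ratio in WT (x axis). Grey dots are genes with an average log2 CPM of at least 2, the dashed line marks equal ratios, and the 12 genes whose difference was called are named, red where the ratio was higher in KO and blue where it was lower. C1s1 lies far above the line and Rn45s and Mir6240 far below it.

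The 12 included Rn45s and Mir6240, whose levels varied widely between libraries of a group. Rn45s had 4599, 2192 and 3750 CPM in KO polysomes and 12230, 22370 and 77180 CPM in KO subpolysomes, with replicate 3 the highest, and 12000, 1563 and 21390 CPM in WT polysomes and 5671, 5945 and 14070 CPM in WT subpolysomes. Mir6240 had 3.74, 11.8 and 30.6 CPM in KO subpolysomes. Lars2, the mitochondrial leucyl-tRNA synthetase and one of the 10 lowest ratios, had 268, 145 and 243 CPM in KO polysomes and 2451, 6123 and 30040 CPM in KO subpolysomes, and 640, 75.9 and 1314 CPM in WT polysomes and 1742, 1626 and 3889 CPM in WT subpolysomes. Its KO pair values ran from -3.20 to -6.95. What makes these libraries vary was not tested.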

How the data were processed

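RNA of the polysome part, the subpolysome part and the unfractionated lysate of organoids was sequenced. The deposited values are whole-number counts per gene symbol, made with Bowtie, HTSeq and build mm10, per the submitters' processing notes. Versions, the annotation, strand and the treatment of reads with several matches are not given. Ratios were fitted with edgeR's quasi-likelihood test (edgeR 4.0.16, R 4.3.3) to the 12 organoid fraction libraries, with TMM factors, edgeR's filter on low counts, 1 block per genotype and replicate number, a fraction term for each genotype and Benjamini-Hochberg adjustment over all 13392 genes tested, at 0.05. The filter left out 11029 of 24421 genes. The interaction of genotype and fraction tested KO minus WT. Total RNA was fitted without a block. Log2 of a single pair used an offset of 0.1 CPM. Alternatives were other scalings, filters, samples, DESeq2 1.42.0 and each replicate left out. On simulated libraries 94.1% of 2-fold and 99.5% of 4-fold changes of the KO ratio were called, and 0.165% of unchanged genes. These shares apply to the simulated setting, where all genes had the same spread and few were changed.

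The rule for named genes took 10 called genes at either end of the KO ratio (average log2 CPM of at least 4, same sign in all pairs), 10 mainly KO genes at either end (average of at least 2), both without predicted models, pseudogenes and small RNA genes, from each list the 3 genes of smallest p, every gene whose difference was called, and a fixed set. Not all of them are described. Other genes were chosen after their values were seen. The comparison, the gene lists and the fixed set were chosen with earlier results of these data known. Protein lengths were taken from GENCODE M21 in place of the RefSeq proteins first planned, and were found for 95% of genes tested. The cancer samples were not used. Results for some genes are not reported here.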

Additional observations from a re-analysis of the deposited data

Results flagged for a closer look

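For 12 genes the polysome to subpolysome ratio differed between KO and WT organoids by the interaction of genotype and fraction in edgeR's quasi-likelihood test. The log2 difference, KO minus WT, was positive for C1s1 (4.96), Dnase1l2 (1.84), D730001G18Rik (1.55), Shmt1 (1.33), Ttll5 (1.04) and Calcb (0.84). It was negative for Mir6240 (-4.30), Rn45s (-3.05), Rsrp1 (-1.22), Ifi202b (-1.08), Spp1 (-0.98) and Wsb1 (-0.90). Of 14 alternative settings C1s1 passed the threshold under 14, Rsrp1 under 13, Ttll5 and Wsb1 under 12, Ifi202b under 11, D730001G18Rik and Spp1 under 10, and Calcb, Dnase1l2 and Shmt1 under 9. Mir6240 passed under 8 of 14 and Rn45s under 6 of 13, and among KO libraries both were highest in subpolysome replicate 3. Shmt1 and Dnase1l2 had overlapping fractions in KO, with ratios of 0.19 and -0.23, against -1.14 and -2.06 in WT. The cause of these differences was not tested.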

How the results depend on the processing

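With library totals alone 8413 genes were higher in polysomes and 1396 lower, against 4450 and 4062 with TMM factors, and the ratios of Lamb3 (0.04), Ttll5 (0.03), Dnase1l2 (0.66), Arid1b (0.19), Upk3b (0.65) and Odc1 (0.57) changed sign. Upper quartile factors put 44.5% of calls on the polysome side. The count of genes whose ratio differed between genotypes, 12, was the least stable value: it was 1 with no replicate block, 47 with any count admitted, 34 by DESeq2, and 5 to 20 with 1 replicate left out (20 without KO replicate 1, 5 without WT replicate 1, 6 without WT replicate 3). The pairing by replicate number had weak backing in the data, with correlations of 0.05, 0.06 and 0.10 between same-numbered KO fractions, though each library correlated best with its own number; with no replicate block 8245 genes were called in KO against 8512. Genes mainly in KO numbered 920 at a log2 of at least 1. Of the named genes' ratios under the alternatives, 2657 kept the call or its absence, 16 lost the call, 7 gained it and 6 changed sign with a call on either side. Fgfr3 (-0.11) and Hspa5 (-0.01) also changed sign, uncalled, with upper quartile factors, as did Fgfr3 (-0.01) with 1 CPM in 3 libraries; of the differences, 123 kept the call and 44 lost the call. The cause of these changes was not tested.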
